A study of Mus musculus with 27 samples.

Results

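The 7 genes of the common-gamma cytokine receptor family, Il2ra, Il2rb, Il2rg, Il7r, Il4ra, Il15ra and Il21r, were followed through sorted CD8+ T cells of mouse tumours. They were taken by symbol from the 47729 genes of the count table, all 7 were found, and all 7 were among the 14059 genes that passed the filter on low counts. The libraries came from tumour-infiltrating T cells of the MC38 model, a mouse colon adenocarcinoma line grown as a tumour, and every group carried this tumour. Live CD45+CD3+CD8+ cells were sorted on PD-1, a brake on T cell activation, and on KLRG1, a receptor carried by late effector T cells. Treatment was Iso, the isotype control, or Tri, which the series text calls TCT. What Tri consists of, the mouse strain and the age of the mice were not given in the sources used here. The labels name the gates PD1+/KLRG1+, PD1+/KLRG1-, PD1-/KLRG1+ and PD1-/KLRG1-, written here without the slash. Iso tumours gave 4 libraries each of PD1-KLRG1- and PD1-KLRG1+ cells. Tri tumours gave 5 libraries each of the PD1-KLRG1-, PD1+KLRG1- and PD1+KLRG1+ cells and 4 of the PD1-KLRG1+ cells. PD1+ cells of Iso tumours were not analysed here, so the treatment was compared in PD1- cells only.

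The common gamma chain, encoded by Il2rg, has no cytokine of its own. It pairs with a private chain to form the receptors for interleukins 2, 4, 7, 9, 15 and 21, and signals through the kinase JAK3, while the private chain recruits JAK1. The signal reaches the nucleus through STAT proteins and maintains survival, growth and effector programmes in T cells. In CD8+ T cells the interleukin-7 receptor is known as a feature of naive and memory cells that is reduced in late effectors, and the interleukin-2 and interleukin-15 receptors share the beta chain encoded by Il2rb.

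Of the 27 libraries 26 held between 6991521 and 26284630 counts, and replicate 3 of Iso PD1-KLRG1+ held 93198. The 4 libraries of Iso PD1-KLRG1+ differed from the rest. Levels are given as CPM, a count relative to the total of its library. Between 9.81% and 29.4% of 6951 well-expressed genes (median 20 CPM or more) had no count in these 4 libraries, against at most 3.57% elsewhere. The CD8 T cell markers (5 of 5 found: Cd3e, Cd3d, Cd8a, Cd8b1, Trac) summed to between 3409 and 8959 CPM in every library, and Cd4 was at most 7.15 CPM. The whole list of CD4 and regulatory T cell markers (5 of 5 found: Cd4, Foxp3, Ikzf2, Cd40lg, Zbtb7b) summed to between 0 and 315.8 CPM. Of 15 myeloid markers, all were found, and the 14 without Ly6c2, a gene that CD8+ T cells also express, summed to 85.8 to 9170 CPM in Iso PD1-KLRG1+, 673 to 3929 in Iso PD1-KLRG1-, 227 to 571 in Tri PD1-KLRG1-, 186 to 257 in Tri PD1-KLRG1+, 240.3 to 655 in Tri PD1+KLRG1-, with 237 to 705 for Tri PD1+KLRG1+. S100a8 had no count in Iso PD1-KLRG1+, Adgre1 and S100a9 had none in Tri PD1-KLRG1- or Tri PD1+KLRG1+, and Adgre1, Cd14, S100a8 and S100a9 had none in Tri PD1-KLRG1+. The 7 markers of tumour and stroma (Krt8, Krt18, Epcam, Col1a1, Col1a2, Col3a1, Sparc) summed to 141.9, 446.5, 21.5 and 3155 CPM in replicates 1 to 4 of Iso PD1-KLRG1+. They summed to at most 77.1 CPM in the libraries of the other groups. Krt8, Krt18 and Epcam had no count in Iso PD1-KLRG1+, so its sums came from Col1a1, Col1a2, Col3a1 and Sparc. Results that involve Iso PD1-KLRG1+ therefore rest on these libraries, and the calls made between other groups are also given from a fit without them. The labels do not say that each library is a separate mouse, so p-values measure the spread between these samples.

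Corrected for transcript length, the chains were present in very unequal amounts. In Tri PD1+KLRG1+ cells, where the shared chain Il2rg had a median of 821 CPM per kilobase (kb) of exon, Il2rb followed at 595, Il21r at 101, Il7r at 20.8, Il15ra at 14.1, Il2ra at 9.96 and Il4ra at 9.05. In Iso PD1-KLRG1- cells the medians were 684 CPM per kb for Il2rg, 210.5 for Il2rb, 55.9 for Il21r, 55.3 for Il7r, 29.9 for Il4ra, 5.64 for Il15ra and 4.74 for Il2ra. The order of the top chains, Il2rg above Il2rb above Il21r, was the same in the medians of all 6 groups. Il21r and Il7r lay within each other's range in Iso PD1-KLRG1- cells (37.1 to 109 and 49.4 to 60.2 CPM per kb), and so did Il2ra and Il15ra in 5 of the 6 groups. In Tri PD1-KLRG1+ cells Il15ra, at 8.82 to 12.9 CPM per kb, lay above Il2ra at 5.67 to 7.91. Of the summed CPM per kb of the 7 genes, Il2rg made up a median of 65.4% to 67.2% in the PD1- groups and 52.2% to 53.1% in the PD1+ groups.

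**Figure D1:**
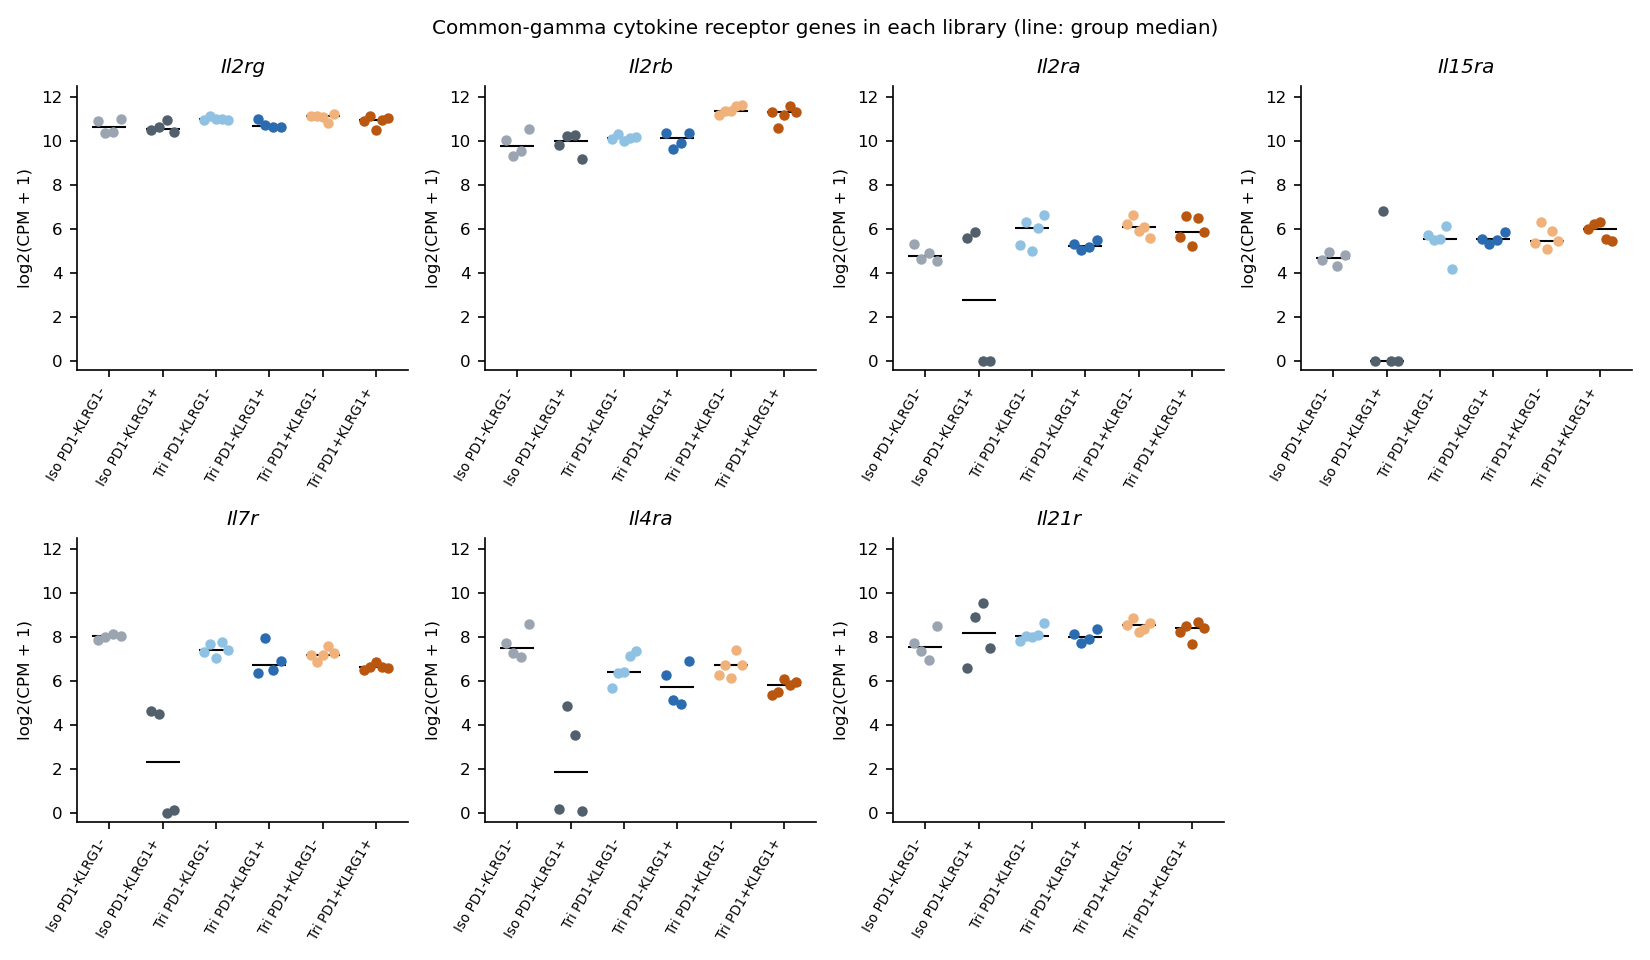
Level of each receptor gene in each of the 27 libraries, as log2(CPM + 1), by group; points are libraries and the line is the group median. Il2rb stands above the PD1- groups in both PD1+ groups (1560 to 3233 CPM), and Il7r and Il4ra are lowest in Iso PD1-KLRG1+ (at most 23.6 and 27.9 CPM).

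Il2rg (ENSMUSG00000031304), is the shared chain itself. Its mean lay between 1602 ± 293 CPM (SD, n = 4) in Iso PD1-KLRG1+ and 2171 ± 218 CPM (n = 5) in Tri PD1+KLRG1- cells, and the libraries of all 6 groups overlapped. It was called in none of the 7 comparisons by edgeR's quasi-likelihood test, in which a gene is called at a Benjamini-Hochberg adjusted p under 0.05 over the 14059 genes. Its largest fitted difference was between Tri and Iso PD1-KLRG1- cells, a log2 fold change of 0.27 ± 0.14 (SE, edgeR adjusted p = 0.697), with a 95% interval of -0.0043 to 0.54. Il2rg shares 728 of its 2387 exon bases (30.5%) with Gm20489 on the same strand in GENCODE M21, so reads there could have been counted for either gene or for none.

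Il2rb (ENSMUSG00000068227), the beta chain through which interleukins 2 and 15 signal, was more abundant in PD1+ than in PD1- cells of Tri tumours, on either side of the KLRG1 gate. In Tri PD1+KLRG1- cells the 5 libraries held 2350, 2633, 2621, 3088 and 3233 CPM, and in Tri PD1-KLRG1- cells they held 1095, 1290, 1016, 1127 and 1155 CPM. Each PD1+ library lay above each PD1- library, and the lowest PD1+ value was well clear of the highest PD1- value. The means of 2785 ± 364 and 1137 ± 100.2 CPM (n = 5 and 5) corresponded to a log2 fold change of 1.22 ± 0.19, a fold of 2.34 (edgeR adjusted p = 0.000237). In bulk samples a change in the share of cells of a type and a change of RNA per cell cannot be told apart.

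The same gene was also higher in PD1+ cells within the KLRG1+ gate. Tri PD1+KLRG1+ libraries held 2551, 1560, 2290, 3081 and 2587 CPM, and Tri PD1-KLRG1+ libraries held 1322, 794, 962 and 1331 CPM. These groups did not overlap either, although the nearest libraries, replicate 2 of Tri PD1+KLRG1+ and replicate 4 of Tri PD1-KLRG1+, stood at 1560 and 1331 CPM. The log2 fold change was 1.02 ± 0.20, a fold of 2.03 (means 2414 ± 556.5 and 1102 ± 268 CPM, n = 5 and 4, edgeR adjusted p = 0.00683). Without the Iso PD1-KLRG1+ libraries both differences were again called, at 1.25 ± 0.16 in KLRG1- cells (edgeR adjusted p = 3.2e-05) and 1.04 ± 0.18 in KLRG1+ cells (edgeR adjusted p = 0.000921). Among libraries without the RNA suffix that some descriptions carry, the values were 1.10 ± 0.22 (edgeR adjusted p = 0.0202) and 0.99 ± 0.22 (edgeR adjusted p = 0.0384). The suffixed libraries, at most 2 a group, were too few for a fit of their own. Il2rb was the single member called in either PD-1 comparison, where 1.56% of all genes tested were called in KLRG1- cells and 1.2% in KLRG1+ cells. It was likewise the single member whose groups did not overlap, against 8.44% of genes in KLRG1- cells and 4.72% in KLRG1+ cells. In the fit without the Iso PD1-KLRG1+ libraries the background was 3.84% in KLRG1- and 3.39% in KLRG1+ cells. Markers of other cells also differed between these gates. The 5 CD4 and regulatory T cell markers summed to 99.4 to 315.8 CPM in Tri PD1+KLRG1- against 50.8 to 178 in Tri PD1-KLRG1- cells, and to 108.8 to 228 in Tri PD1+KLRG1+ against 35.6 to 60.7 in Tri PD1-KLRG1+ cells. Cd4 itself had a median of 0.519 CPM in Tri PD1+KLRG1- cells and of 0 in the other 3 of these groups, and Foxp3 had medians of at most 5.65 CPM in all 4. The 14 myeloid markers without Ly6c2 had medians of 469 against 264 CPM in the KLRG1- gate and 431 against 199 CPM in the KLRG1+ gate, PD1+ first. Among the 14, Cd74 alone had medians of 328 against 65.8 CPM and 266 against 33.4 CPM in the same order. Lyz2 had medians of 33.8 against 30.5 CPM and 34.8 against 15.1 CPM. The 4 markers of NK and innate-like cells, which also carry Il2rb, had medians of 9.67 against 13.9 and 14.45 against 16.55 CPM in the same order. The part of these markers in the Il2rb difference was not tested.

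Il2rb was called in none of the treatment or KLRG1 comparisons. Tri against Iso gave 0.17 ± 0.20 in PD1-KLRG1- and 0.24 ± 0.21 in PD1-KLRG1+ cells, and KLRG1+ against KLRG1- gave -0.20 ± 0.19 in Tri PD1+, 0.01 ± 0.20 in Tri PD1- and -0.06 ± 0.21 in Iso PD1- cells, all as log2 fold changes. The 4 PD1- groups had means between 980.3 and 1137 CPM. In each of these comparisons the libraries overlapped. A difference of the PD-1 effect between the KLRG1 gates was not detectable (interaction -0.21 ± 0.27, 95% interval -0.74 to 0.32, edgeR adjusted p = 1).

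**Figure D2:**
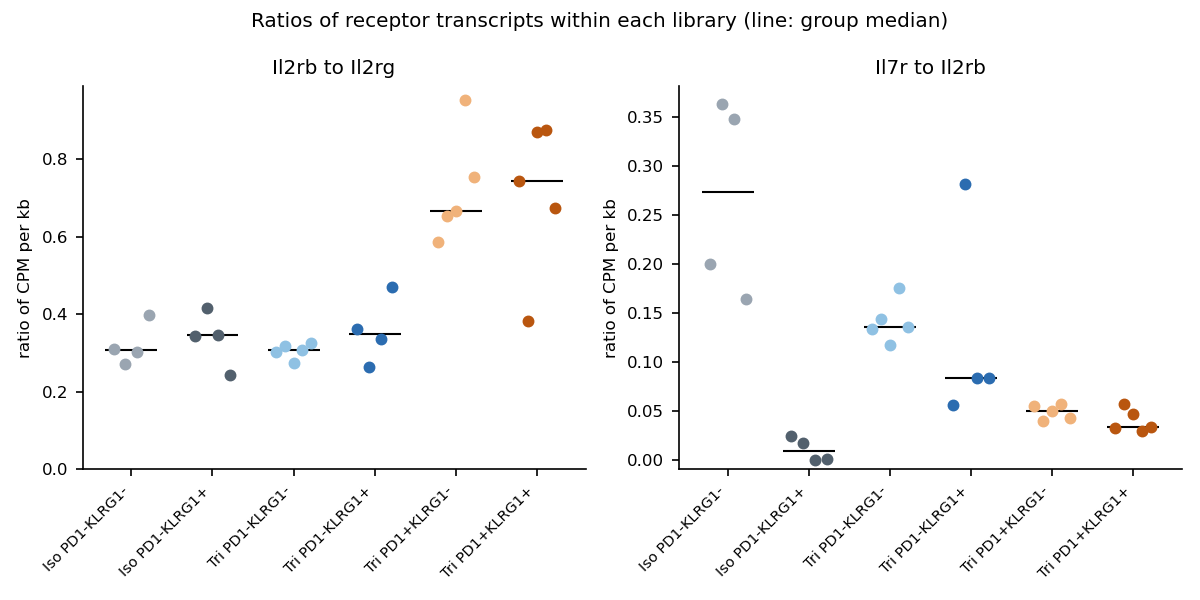
Ratio of 2 receptor transcripts, in CPM per kb, within each library; points are libraries and the line is the group median. Il2rb to Il2rg is 0.383 to 0.953 in PD1+ libraries and 0.242 to 0.469 in PD1- libraries; Il7r to Il2rb is highest in Iso PD1-KLRG1-.

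The balance of the beta chain to the shared chain can be read within each library. Il2rb stood at a median of 0.307 to 0.349 of Il2rg per kb in the 4 PD1- groups, at 0.665 in the KLRG1- and 0.745 in the KLRG1+ cells of the Tri PD1+ gate. Replicate 2 of Tri PD1+KLRG1+, at 0.383, was the one PD1+ library inside the range of PD1- libraries. The balance of Il7r to Il2rb ran the other way, from a median of 0.274 in Iso PD1-KLRG1- through 0.135 (Tri PD1-KLRG1-) and 0.0832 (Tri PD1-KLRG1+) to 0.0499 (Tri PD1+KLRG1-) and 0.0338 (Tri PD1+KLRG1+). In Iso PD1-KLRG1+ it was 0.00845. Il2rb is divided by Il2rg in the first ratio and divides Il7r in the second. Its difference between the PD-1 gates alone therefore moves the 2 ratios in opposite directions. These ratios combine the members' own values and were not tested separately.

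Il2ra (ENSMUSG00000026770) encodes the alpha chain that turns the intermediate interleukin-2 receptor into the high-affinity form. It was called in no comparison. Its mean was 26.3 ± 30.6 CPM in the KLRG1+ and 28.9 ± 7.44 in the KLRG1- cells of Iso tumours, and it reached 65.5 ± 25.6 CPM in the KLRG1+ and 69.6 ± 19.3 in the KLRG1- cells of the Tri PD1+ gate. The Iso PD1-KLRG1+ libraries disagreed among themselves, with 47.6 and 57.5 CPM in replicates 1 and 2 and no count in replicates 3 and 4. A count of 0 allows up to 32.2 CPM in replicate 3, whose depth could not have shown much of the level seen elsewhere, but only 0.1505 CPM in replicate 4 (3 counts of the library total, covering counting error only). In PD1-KLRG1- cells Il2ra averaged 62.6 ± 27.7 CPM under Tri (31.6 to 97.7) and 28.9 under Iso (22.5 to 39.1), a log2 fold change of 1.11 ± 0.86 with a 95% interval of -0.58 to 2.81 (edgeR adjusted p = 1). Without the Iso PD1-KLRG1+ libraries the value was 1.03 ± 0.36 (edgeR adjusted p = 0.174). The Tri and Iso libraries of this gate overlapped.

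Il15ra (ENSMUSG00000023206), the chain that presents interleukin 15 and neighbours Il2ra on chromosome 2, also passed no test. Means in the Tri groups lay between 46.1 ± 19.2 CPM in PD1-KLRG1- and 61.0 ± 16.3 CPM in PD1+KLRG1+ cells, and the mean was 25.0 ± 4.91 CPM in Iso PD1-KLRG1- cells. In Iso PD1-KLRG1+ it was at 112.8 CPM in replicate 2, the highest value of any library, and had no count in the other 3. The treatment difference in PD1-KLRG1- cells was 0.87 ± 1.08 (edgeR adjusted p = 1), with overlapping libraries because replicate 5 of Tri, at 17.3 CPM, lay below all 4 Iso libraries. Without the Iso PD1-KLRG1+ libraries the difference was 0.84 ± 0.35 (edgeR adjusted p = 0.314).

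Il7r (ENSMUSG00000003882), is the alpha chain of the interleukin-7 receptor. In Iso PD1-KLRG1- cells the 4 libraries held 230.2, 252.7, 280.7 and 263 CPM. In Iso PD1-KLRG1+ cells they held 23.6, 21.6, 0 and 0.1004 CPM, each below every KLRG1- library. The count of 0 in replicate 3 allowed up to 32.2 CPM, while replicate 4 held 2 Il7r counts in a library of 19929546. The log2 fold change of KLRG1+ against KLRG1- cells was -4.35 ± 0.73 (means 11.3 ± 13.1 and 256.7 ± 21.1 CPM, n = 4 and 4, edgeR adjusted p = 0.000355).

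PD1-KLRG1+ cells held more of this transcript under Tri than under Iso. Tri PD1-KLRG1+ libraries held 80.0, 243, 87.5 and 119.8 CPM, all above the 4 Iso libraries of that gate, and replicate 2 stood far above the others. The log2 fold change of Tri against Iso was 3.38 ± 0.70 (means 132.6 ± 75.6 and 11.3 ± 13.1 CPM, n = 4 and 4, edgeR adjusted p = 0.0039). The KLRG1 difference within Tri was much smaller, -0.38 ± 0.59 in PD1- cells (132.6 against 174.6 ± 33.9 CPM) and -0.58 ± 0.55 in PD1+ cells (98.6 ± 9.91 against 147 ± 27.6 CPM), and neither passed the test (edgeR adjusted p = 1 for both). The difference between the KLRG1 effects under Tri and under Iso was tested directly and came to 3.97 ± 0.89 (edgeR adjusted p = 0.0118). The KLRG1 difference of Iso cells, the treatment difference and the difference between KLRG1 effects share the Iso PD1-KLRG1+ libraries and are not independent of one another.

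Beside these values stand the properties of those libraries. Of 7 tumour and stroma markers and 14 myeloid markers, summed levels in Iso PD1-KLRG1+ ran to 3155 and 9170 CPM. Krt8, Krt18, Epcam and S100a8 of these lists had no count there. Many well-expressed genes also had no count, with 8.66% of all genes called and 16.8% not overlapping between the KLRG1 gates of Iso cells. The part of these properties in the Il7r result was not tested. Without replicates 3 and 4 of Iso PD1-KLRG1+ and replicate 5 of Tri PD1-KLRG1- the Il7r values were -3.60, 2.61 and 3.21 in the order given, each called by edgeR (adjusted p = 2.29e-06, 7.21e-05 and 7.07e-05). Leaving out replicate 4 of Iso PD1-KLRG1+ alone gave -3.75, 2.80 and 3.43. In libraries without the name suffix the values were -3.78, 2.88 and 3.55 (edgeR adjusted p = 0.000465, 0.00312 and 0.0106), and the suffixed series held 1 Iso library a gate. With limma-voom and sample weights none of the calls held, at values of -5.16, 3.91 and 4.48 (adjusted p = 0.295, 0.499 and 0.549). With only the groups compared in the edgeR fit the treatment and interaction calls were lost, at 3.96 and 3.87 (adjusted p = 0.389 and 0.0687).

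In PD1-KLRG1- cells the treatment difference of Il7r had the opposite sign and did not pass the test. The 5 Tri libraries held 159, 201, 129.5, 214.5 and 169 CPM, each below the 4 Iso libraries. The log2 fold change was -0.58 ± 0.58 (means 174.6 ± 33.9 and 256.7 ± 21.1 CPM, edgeR adjusted p = 1), and -0.63 in the fit without Iso PD1-KLRG1+ (edgeR adjusted p = 0.277). Non-overlapping libraries were found for 6.51% of all genes in this comparison. The order of the group means was Iso PD1-KLRG1-, Tri PD1-KLRG1-, Tri PD1+KLRG1- (147), Tri PD1-KLRG1+, Tri PD1+KLRG1+ (98.6) and Iso PD1-KLRG1+, and the libraries of each of the Tri groups overlapped those of its neighbour.

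Il4ra (ENSMUSG00000030748), the chain that binds interleukin 4 and also serves interleukin 13, followed Il7r in the Iso cells. Iso PD1-KLRG1- libraries held 208.5, 150.3, 132 and 378 CPM, and Iso PD1-KLRG1+ libraries held 0.143, 27.9, 10.7 and 0.0502 CPM. The groups did not overlap, and replicates 1, 3 and 4 of Iso PD1-KLRG1+ rested on 1 Il4ra count each. The fitted log2 fold change was -4.41 ± 0.99 (means 9.70 ± 13.1 and 217 ± 112 CPM, n = 4 and 4, edgeR adjusted p = 0.00495). It became -10.68 without replicate 2 of Iso PD1-KLRG1+, the one library with more than a single count, and the call was lost with only the groups compared (-4.80, edgeR adjusted p = 0.179) and with limma-voom and sample weights (-6.12, adjusted p = 0.295). Il7r and Il4ra were the 2 of 7 members called lower in this comparison, in which 8.66% of all genes were called and 16.8% did not overlap, and the members' median log2 fold change of -0.11 lay above the median of -0.52 over all genes.

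Against the Iso cells of the PD1-KLRG1+ gate, Tri cells held 76.5, 34.4, 29.9 and 118 CPM of Il4ra, all above the 4 Iso values. The log2 fold change of 2.64 ± 0.93 did not pass the test (edgeR adjusted p = 0.0891), nor did the difference of KLRG1 effects between treatments (3.84 ± 1.19, edgeR adjusted p = 0.0667). Il7r was therefore the single member called among 6.08% of all genes in this treatment comparison and among 3.59% in the interaction, and Il7r and Il4ra were the members that did not overlap, against 9.04% of genes. Without replicate 2 of Iso PD1-KLRG1+ Il7r, Il4ra and Il15ra were all called in both. The medians over the 7 members and over all genes were 0.50 and 0.34 in the treatment comparison.

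**Figure D3:**
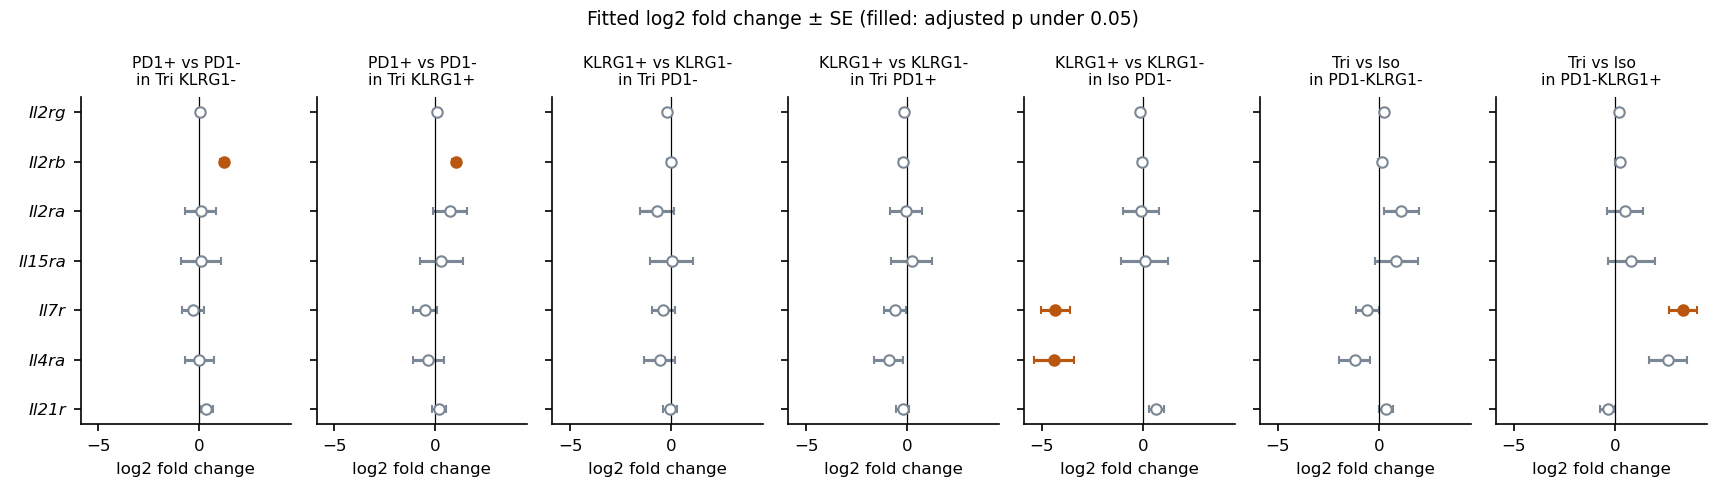
Fitted log2 fold change of each receptor gene in the 7 comparisons, with SE bars; filled points passed an adjusted p under 0.05. Il2rb passes in both PD-1 comparisons (1.22 and 1.02), Il7r and Il4ra between the KLRG1 gates of Iso cells (-4.35 and -4.41), and Il7r in the treatment comparison of PD1-KLRG1+ cells (3.38).

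In PD1-KLRG1- cells the 5 Tri libraries held 49.8, 81.7, 83.4, 140.5 and 159.9 CPM of Il4ra, beside the Iso values given before. Replicates 4 and 5 of Tri overlapped the lower Iso libraries. No member was called there in the fit of all 27 libraries, in which 0.804% of all genes were called, and Il4ra had a log2 fold change of -1.21 ± 0.77 (edgeR adjusted p = 0.909). At an unadjusted p under 0.05 edgeR held 0 members there, DESeq2 called 0, and limma-voom with sample weights called 2, Il7r and Il4ra. In the fit without the Iso PD1-KLRG1+ libraries, chosen after the data had been seen, it had -1.24 ± 0.28 and was called (edgeR adjusted p = 0.0165), among 2.16% of the 14008 genes then tested. With only the 2 groups compared it was called as well (edgeR adjusted p = 0.0184). Myeloid cells also express Il4ra, and the 14 myeloid markers without Ly6c2 summed to 673 to 3929 CPM in these Iso libraries against 227 to 571 in the Tri libraries. Replicate 4 of Iso PD1-KLRG1-, highest in Il4ra at 378 CPM, was also the highest of its group in the 15 myeloid markers, at 6392 CPM, and the part of these markers in the difference was not tested. Il4ra shares 571 of its 6002 exon bases (9.51%) with Gm44876 on the opposite strand, and the sources used here do not say whether counting used strand.

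Il4ra also separated the KLRG1 gates of Tri PD1+ cells without passing the test. Tri PD1+KLRG1+ libraries held 40.4, 44.4, 67.0, 54.3 and 60.2 CPM, each below the 5 Tri PD1+KLRG1- libraries at 75.5, 105.3, 67.8, 167.5 and 105.6 CPM. The gap between the nearest libraries, 67.0 and 67.8 CPM, was small. The log2 fold change was -0.91 ± 0.73 (means 53.3 ± 11.01 and 104 ± 39.2 CPM, edgeR adjusted p = 1), and -0.88 in the fit without Iso PD1-KLRG1+ (edgeR adjusted p = 0.258). Il4ra was the single non-overlapping member here, against 2.41% of all genes, and no member was called among the 0.0569% of genes called, or 0.0857% without the Iso PD1-KLRG1+ libraries. In Tri PD1- cells no member was called or non-overlapping between the KLRG1 gates. There 0% of genes were called by edgeR, 0.00714% without the Iso PD1-KLRG1+ libraries, and 1.7% did not overlap. For the difference of the KLRG1 effects between PD-1 gates 0% of genes were called with or without those libraries. At an unadjusted p under 0.05 edgeR had 675 genes in the Tri PD1- comparison and 638 in this interaction, DESeq2 called 192 and 197 genes, and limma-voom with sample weights called 27 and 5. In these and in the KLRG1 comparison of Tri PD1+ cells, 0 of the 7 members had an unadjusted edgeR p under 0.05 in the fit of all libraries, and 0 were called by DESeq2 or limma-voom. Without the Iso PD1-KLRG1+ libraries Il4ra and Il7r had unadjusted edgeR p of 0.00287 and 0.0256 between the KLRG1 gates of Tri PD1+ cells, with log2 fold changes of -0.88 and -0.56, and neither was called.

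The promoters of Il7r and Il4ra are shown because these chains were low together in the Iso PD1-KLRG1+ cells. Each window runs from 250 bases before to 50 bases after the start site in RefSeq's annotation of GRCm38.p6, read 5′ to 3′ along the gene's strand: chr15:9529827-9530126, minus strand, for Il7r and chr7:125552021-125552320, plus strand, for Il4ra. Capitals mark matches to the motifs described after them.
Il7r: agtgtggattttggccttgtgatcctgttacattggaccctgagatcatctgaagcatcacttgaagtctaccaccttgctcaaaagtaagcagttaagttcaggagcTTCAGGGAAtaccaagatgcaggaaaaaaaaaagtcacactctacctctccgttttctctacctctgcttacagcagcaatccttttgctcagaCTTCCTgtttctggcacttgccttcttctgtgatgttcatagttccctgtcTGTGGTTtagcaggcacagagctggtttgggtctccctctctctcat
Il4ra: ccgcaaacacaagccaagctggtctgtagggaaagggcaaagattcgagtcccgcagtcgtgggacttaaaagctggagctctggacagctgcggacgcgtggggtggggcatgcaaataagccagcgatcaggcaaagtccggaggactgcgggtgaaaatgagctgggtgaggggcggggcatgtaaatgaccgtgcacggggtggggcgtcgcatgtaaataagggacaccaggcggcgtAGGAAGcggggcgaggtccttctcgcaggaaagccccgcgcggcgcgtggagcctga
Of the 7 members 6 had a window in this table. Short motifs of 5 transcription factor families were searched on both strands, namely STAT (TTCNNNGAA), ETS (CTTCCT), FOXO (GTAAACA), RUNX (TGTGGTT) and T-box (GGTGTGA). The Il7r window held a STAT match from -142 to -134, an ETS match from -48 to -43 and a RUNX match from 3 to 9, counted from the start site, and the Il4ra window held one ETS match on the opposite strand from -7 to -2. These matches do not overlap one another. Of all 32851 promoter windows of this length, 8.30% held the STAT motif, 35.4% ETS, 5.27% RUNX, 3.65% FOXO and 3.98% T-box. ETS matches were also found in the windows of Il2ra, Il15ra and Il2rg, and a FOXO match in that of Il21r. A match is a description of the letters and does not show that a factor binds.

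Il21r (ENSMUSG00000030745), which lies next to Il4ra on chromosome 7 and encodes the interleukin-21 receptor, was called in no comparison. Group means ran from 214 ± 104 CPM in Iso PD1-KLRG1- to 371 ± 295 CPM in Iso PD1-KLRG1+, where the libraries held 94.3, 472, 740.4 and 178 CPM. The value of 740.4 CPM belongs to the library of 93198 counts. Among the Tri groups it lay between 261 ± 49.2 CPM in PD1-KLRG1+ and 367 ± 66.3 CPM in PD1+KLRG1- cells, with overlapping libraries throughout. Unlike its neighbour Il4ra it had counts well above 0 in all 4 Iso PD1-KLRG1+ libraries, and its KLRG1 difference in Iso cells was 0.66 ± 0.37 (edgeR adjusted p = 0.27).

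Leaving out the library of 93198 counts, the between-library Pearson correlation of log2(CPM + 1) over the other 26 was 0.85 between Il7r and Il4ra, 0.73 between Il4ra and Il15ra and 0.67 between Il7r and Il2ra. Without the Iso PD1-KLRG1+ libraries, over 23 libraries, these became 0.62, -0.44 and -0.35. The correlation of Il2rb with Il21r was 0.65 with and 0.70 without them, and that of Il2rg with Il21r was 0.67 and 0.73. These points share groups, depth and the low detection of the Iso PD1-KLRG1+ libraries, and are given as a description. The gene most like Il2rb over these 26 libraries, out of 8790 that averaged 10 CPM or more, was Stat3 (r = 0.9545), followed by Adam8 (0.900) and Sema4c (0.894). For Il7r they were P2ry10 (0.913), Zfp131 (0.906) and Vbp1 (0.902), for Il4ra Prmt3 (0.949), Axin1 (0.909) and Ppan (0.907), and for Il2rg 1110032F04Rik (0.804), Ddx11 (0.778) and Fut7 (0.769). Il2ra was most like Traf2 (0.951), Sigirr (0.925) and Scamp2 (0.917), Il15ra most like Dlg1 (0.954), Tubgcp4 (0.945) and Kdm3a (0.942), and Il21r most like Mxi1 (0.814), Edc4 (0.812) and Dpp4 (0.808).

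Of 29 other genes of the pathway 23 were tested. Il13ra1, Il4, Il7, Il9, Il21 and Tslp did not pass the filter on low counts. In the comparison of PD1+ with PD1- cells in the KLRG1- gate, 1 of the 23 rose and 0 fell, where 1.56% of all genes were called, 10 of the 23 had an unadjusted edgeR p under 0.05, and DESeq2 called 4 and limma-voom with sample weights 12. EdgeR called 3 higher (Stat3, Crlf2 and Il9r) and 1 lower (Socs1) in the fit without Iso PD1-KLRG1+, beside 3.84% of all genes. Stat3, the signal transducer of interleukin 21, was at 1040 ± 142 CPM in PD1+ and 503 ± 122 CPM in PD1- cells (log2 fold change 1.01 ± 0.20, edgeR adjusted p = 0.00424), with no overlap, and at 1.05 ± 0.16 without the Iso PD1-KLRG1+ libraries (edgeR adjusted p = 0.000142). Socs1, a feedback inhibitor of JAK kinases, was at 141 ± 26.6 CPM in PD1+ and 259 ± 36.6 CPM in PD1- cells without overlap, at -0.93 ± 0.26 in all libraries (edgeR adjusted p = 0.074) and -0.91 ± 0.22 in the fit without Iso PD1-KLRG1+ (edgeR adjusted p = 0.0149). In the KLRG1+ gate none of the 23 was called by edgeR beside 1.2% of all genes, 5 had an unadjusted p under 0.05, and DESeq2 called 2 and limma-voom with sample weights 2. There Stat3 had 0.69 ± 0.21 (edgeR adjusted p = 0.131). Without the Iso PD1-KLRG1+ libraries it was called there (0.71 ± 0.17, edgeR adjusted p = 0.0151), with Jak1, the kinase of the private chains, lower as well (-0.81, edgeR adjusted p = 0.0189). The STATs that carry interleukin-2, interleukin-7 and interleukin-15 signals, Stat5a and Stat5b, were called in no comparison, and Stat5b had group means between 136 and 205.5 CPM.

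**Figure D4:**
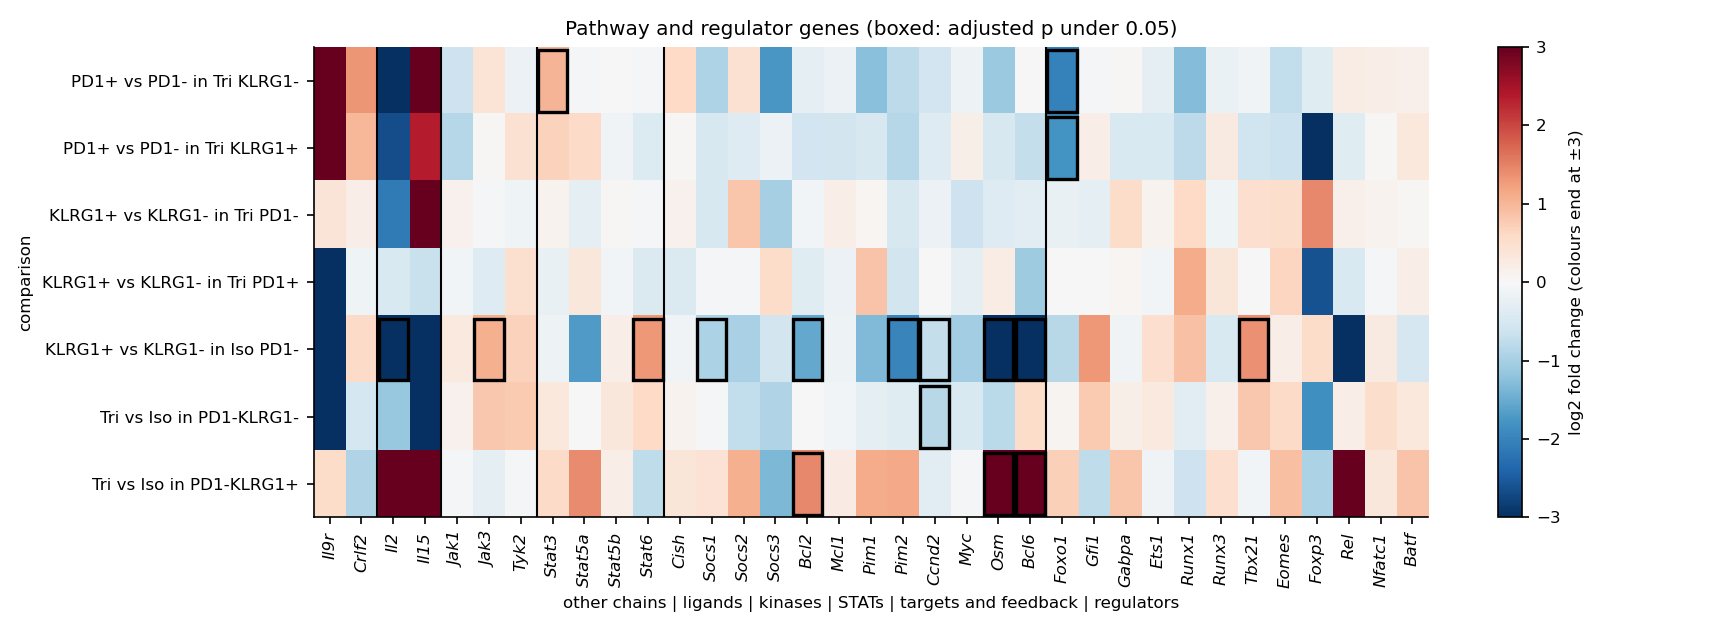
Fitted log2 fold change of the 23 tested pathway genes and 12 regulators in the 7 comparisons, with colours ending at ±3; boxes mark an adjusted p under 0.05. The KLRG1 comparison of Iso cells has the most boxes; Foxo1 is boxed in both PD-1 comparisons.

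Of the 3 receptor chains listed beyond the 7 members, Crlf2 and Il9r were tested. Crlf2, a chain of the thymic stromal lymphopoietin receptor, averaged 62.2 ± 7.90 CPM in the PD1+ and 23.9 ± 7.17 CPM in the PD1- cells of the Tri KLRG1- gate, with no overlap, and was called in the fit without Iso PD1-KLRG1+ (1.35, edgeR adjusted p = 0.022) and not in that of all libraries. Il9r, the interleukin-9 receptor, had counts in all 5 Tri PD1+KLRG1- libraries, at 2.11 to 11.2 CPM, and none in the 5 Tri PD1-KLRG1- libraries, and was called in the fit without Iso PD1-KLRG1+ (edgeR adjusted p = 0.0497) and not in that of all libraries (edgeR adjusted p = 0.0855). The ligand Il2 was at 6.54 to 31.3 CPM in Iso PD1-KLRG1- cells, at most 0.279 CPM in Iso PD1-KLRG1+, and at most 0.915 CPM in either PD1+ group. It was at 0.604 to 16.3 CPM in Tri PD1-KLRG1- and 0.117 to 2.69 CPM in Tri PD1-KLRG1+ cells. Both ranges overlapped those of the PD1+ cells of the same KLRG1 gate, and edgeR called Il2 in neither PD-1 comparison.

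In the KLRG1 comparison of Iso cells 2 of the 23 pathway genes rose and 7 fell, beside 8.66% of all genes called, with a median of -0.94 beside -0.52 over all genes. DESeq2 called 8 of the 23 and limma-voom with sample weights 0. Jak3, the kinase bound to the common gamma chain, was at 462 ± 196 CPM in KLRG1+ and 204 ± 71.9 CPM in KLRG1- cells (1.07 ± 0.29, edgeR adjusted p = 0.0213), and Stat6, the transducer of interleukin 4, at 494 ± 175 and 210 ± 136 CPM (1.30 ± 0.37, edgeR adjusted p = 0.028). Libraries overlapped for both. The genes that fell were Il2, Socs1, Bcl2, Pim2, Ccnd2, Osm and Bcl6. Bcl2, a survival factor that interleukin 7 is known to maintain, was at 179 ± 95.7 CPM in Iso PD1-KLRG1+ against 516 ± 25.3 in Iso PD1-KLRG1- cells (-1.53 ± 0.38, edgeR adjusted p = 0.0108). It was at 488 ± 109 CPM in Tri PD1-KLRG1+ cells, above Iso by 1.44 ± 0.38 (edgeR adjusted p = 0.0224), and its libraries did not overlap in either comparison. Bcl2, Osm and Bcl6 were the 3 pathway genes that rose in this treatment comparison, with none falling and a median of 0.43 beside 0.34 over all genes, of which 6.08% were called. DESeq2 called 5 of the 23 there and limma-voom with sample weights 0. Osm and Bcl6 had at most a single count in each Iso PD1-KLRG1+ library, and Osm rose in the interaction.

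In PD1-KLRG1- cells Ccnd2, a cyclin of early cell cycle entry, was lower under Tri than under Iso (510.2 ± 113.5 against 904 ± 86.3 CPM, -0.83 ± 0.18, edgeR adjusted p = 0.0266), and again without the Iso PD1-KLRG1+ libraries (-0.83, edgeR adjusted p = 0.0107). Ccnd2 was 1 of 23 pathway genes called there in either fit, beside 0.804% of all genes, or 2.16% without those libraries. The other 22 tested pathway genes were not called by edgeR there. In the fit of all libraries 4 of the 23 had an unadjusted edgeR p under 0.05. DESeq2 called 1 of the 23 and limma-voom with sample weights 2. Within Tri, edgeR, DESeq2 and limma-voom called 0 pathway genes between the KLRG1 gates of PD1+ or PD1- cells, where 0 had an unadjusted edgeR p under 0.05 in the fit of all libraries. In the fit without Iso PD1-KLRG1+ 1 (Pim2) had one in PD1+ cells and 2 (Socs1 and Myc) in PD1- cells, and 0 were called. Of all genes, edgeR called 0.0569% in PD1+ and 0% in PD1- cells, or 0.0857% and 0.00714% in that fit.

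Of 12 transcription factors known to act on these receptor genes in T cells, Foxo1, an activator of Il7r, fell with PD-1 in both KLRG1 gates. Within Tri KLRG1- it averaged 65.7 ± 6.31 CPM in PD1+ and 261 ± 32.2 CPM in PD1- cells (-2.03 ± 0.41, edgeR adjusted p = 0.00544), and 68.5 ± 46.6 and 216 ± 47.0 CPM in the KLRG1+ gate (-1.79 ± 0.43, edgeR adjusted p = 0.0297), without overlap. Foxo1 was 1 of the 12 called in each gate, beside 1.56% of all genes called and 8.44% not overlapping in KLRG1- cells. In KLRG1+ cells these shares were 1.2% and 4.72%. The fit without Iso PD1-KLRG1+ gave Foxo1 -1.997 and -1.76 (edgeR adjusted p = 0.00023 and 0.00191), beside 3.84% and 3.39% of all genes called. Il7r itself had log2 fold changes of -0.29 ± 0.54 and -0.50 ± 0.58 in the same comparisons, with edgeR adjusted p of 1 and 0.952. Tbx21, which encodes T-bet, a factor known to act on Il2rb, rose with KLRG1 in Iso cells (409 ± 64.1 against 154 ± 63.4 CPM, 1.38 ± 0.25, edgeR adjusted p = 0.000671), where Il2rb had a log2 fold change of -0.06 ± 0.21. Tbx21 was 1 of the 12 called there, beside 8.66% of all genes. In the other 4 comparisons none of the 12 was called. There edgeR called 0.804% and 6.08% of all genes for treatment in PD1-KLRG1- and PD1-KLRG1+ cells. It called 0.0569% and 0% for KLRG1 in Tri PD1+ and Tri PD1- cells.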

How the data were processed

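The authors deposited whole-number counts per mouse gene, 1 column for each of 27 libraries. DESeq2 1.26.0 is named in the submitters' processing notes without a role; the aligner, counter, build and annotation were not given in the sources used here. Gene symbols and exon lengths came from GENCODE M21, which named 47224 of 47729 IDs, and promoters from RefSeq. Groups followed the labels. The 7 members, the pathway and regulator lists, the tests and the alternatives were chosen with earlier results of these data known.

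Genes were filtered with filterByExpr (minimum count 10), scaled with TMM and fitted to all 27 libraries with edgeR 4.0.16 in R 4.3.3 (robust quasi-likelihood, a mean per group and a term for the RNA suffix of the descriptions). There were 7 comparisons and 2 interactions, with Benjamini-Hochberg adjustment over all genes tested. The standard error of a log2 fold change was its size over the square root of F. CPM used the raw library totals, and the length scale divided it by the exon length.

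All members were named, pathway and regulator genes by values where called or where a member's result turned on them, and for each member the 3 genes with the highest Pearson r. Crlf2, Il9r, Jak1, Socs1 in the PD-1 comparison, Pim2 and Myc in Tri cells, Stat5a and Stat5b were named after their values were seen. A pathway gene is not reported here and is left out of the list's counts. Alternatives were median-ratio scaling, no filter, a minimum count of 50, no suffix term, DESeq2 1.42.0, limma-voom (limma 3.58.1) with sample weights, a replicate block, only the groups compared, libraries without the suffix, leaving out 3 libraries that stand apart, leaving out each library and, added after the data had been seen, leaving out Iso PD1-KLRG1+. The procedure was tested on simulated data. Figures were drawn with matplotlib 3.10.9.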

Additional observations from a re-analysis of the deposited data

Results flagged for a closer look

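Il15ra stood at 112.8 CPM in replicate 2 of Iso PD1-KLRG1+, far from the other 3 libraries of that group, which had no count. Il21r stood at 397.4 CPM in replicate 5 of Tri PD1-KLRG1-, apart from the other 4 libraries at 225 to 267 CPM. Of 42 groups of values searched for such a library, chance flags about 1 in 20. The KLRG1 difference of Il7r in PD1- cells differed between the treatments by 3.97 on the log2 scale (edgeR adjusted p = 0.0118), with -4.35 under Iso and -0.38 under Tri.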

How the results depend on the processing

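Both Il2rb calls between the PD-1 gates held under all 11 alternatives (0.98 to 1.12 in KLRG1+ and 1.10 to 1.30 in KLRG1- cells) and without any single library (0.94 to 1.20 and 1.17 to 1.33). The number of members called moved elsewhere. In PD1-KLRG1- cells it was 0 between treatments, 2 with limma-voom and sample weights (Il7r and Il4ra), 1 with only the groups compared and 1 without the Iso PD1-KLRG1+ libraries (Il4ra in both). In PD1-KLRG1+ cells it was 1 between treatments, 2 with no filter, 2 with DESeq2 (Il7r and Il4ra in both), 0 with limma-voom and 0 with only the groups compared, and 1 to 3 without single libraries. Between the KLRG1 gates of Iso cells it was 2, 0 with limma-voom and 1 with only the groups compared, and 2 to 3 without single libraries. In the interaction of KLRG1 and treatment it was 1, 2 with no filter, 2 with DESeq2, 0 with limma-voom and 0 with only the groups compared, and 1 to 3 without single libraries. The highest counts without a single library came without replicate 2 of Iso PD1-KLRG1+; the cause was not tested. The 3 Il7r calls held without any single library, at 2.80 to 3.87, -4.86 to -3.75 and 3.43 to 4.45. None of the Il2rb, Il7r and Il4ra results called here reversed its sign under these alternatives. The alternatives were fitted over all genes tested. For the pathway and regulator genes, values are given only from the fit without Iso PD1-KLRG1+, and numbers called from DESeq2 and limma-voom for the pathway genes. Median-ratio scaling shifted the median of all genes by -0.19 in the treatment comparison of PD1-KLRG1+ cells, 0.15 in the KLRG1 comparison of Iso cells, 0.10 in the PD-1 comparison of KLRG1+ cells and -0.17 in the interaction with treatment, and changed no member's call.

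Counts of all genes called varied more than those of members. Across the alternatives they ran from 60 to 1098 (113 as reported) and 0 to 1947 (855) for treatment in PD1-KLRG1- and PD1-KLRG1+ cells, 2 to 205 (8), 0 to 192 (0) and 13 to 2326 (1218) for KLRG1 in Tri PD1+, Tri PD1- and Iso PD1- cells, 140 to 706 (169) and 91 to 2018 (219) for PD-1 in KLRG1+ and KLRG1- cells, and 0 to 1264 (505) and 0 to 197 (0) for the interactions of KLRG1 with treatment and with PD-1. Leaving out single libraries gave, in the same order, 28 to 154, 578 to 1280, 0 to 8, 0 to 1, 883 to 1591, 84 to 158, 129 to 177, 318 to 866 and 0 to 1. Counts moved by over 1.5 times without replicate 2 or 3 of Iso PD1-KLRG1- or 1 to 4 of Tri PD1-KLRG1- for treatment in PD1-KLRG1- cells (28, 54, 70, 49, 73 and 60), replicate 1 or 4 of Tri PD1-KLRG1+ for PD-1 in KLRG1+ cells (84 and 91), replicate 1 of Tri PD1-KLRG1- or 1 or 3 of Tri PD1+KLRG1- for PD-1 in KLRG1- cells (139, 138 and 129), and replicate 2 of Iso PD1-KLRG1- or 1 or 2 of Iso PD1-KLRG1+ for the interaction with treatment (318, 798 and 866). The 8 genes called between the KLRG1 gates of Tri PD1+ cells became 0 to 5 without any one library other than replicate 4 of Tri PD1+KLRG1+ (8).

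The replicate block took the place of the suffix term. Within a treatment it was treatment and replicate number, and in the treatment comparisons and the interaction with treatment it was the number alone. There it joined Iso and Tri libraries of equal number, which the labels do not say belong together. Each member call reported from the 27 libraries held, with Il2rb at 1.02 and 1.22, Il7r at 3.41, -5.23 and 4.04 and Il4ra at -7.83. Il15ra was also called between the KLRG1 gates of Iso cells. Equal numbers were not treated as pairs in the main fit. Deviations of same-numbered libraries correlated at -0.223 to 0.559 over 27 Tri pairs (13 above 0.1, against 21 of 108 pairs of unlike number, and with the 6 pairs of replicate 4 at 0.29 to 0.559) and -0.0488 to 0.0881 over 4 Iso pairs. The Tri medians were 0.0884 for same-numbered pairs and -0.0237 for the others. Some same-numbered Tri libraries, among them those of replicate 4, therefore deviated together.

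In replicate 3 of Iso PD1-KLRG1+, with 93198 counts, a count of 0 allows up to 32.2 CPM, which limits Il2ra, Il7r and Il15ra in that group. Il4ra is limited as well, because it rested on 1 count in that library.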
